A study of Mus musculus with 22 samples.

Results

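The mRNA levels of 10 heat shock proteins and cochaperones were followed in sorted hippocampal nuclei 24 h after status epilepticus: Hspa1a, Hspa1b, Hspb1, Hspa8, Hsph1, Hspd1, Hspe1, Dnajb1, Hsp90aa1 and Bag3. Each is 1 row of a table of 53379 genes, found by matching its Ensembl identifier to its symbol, and all 10 passed the filter on low counts. The hippocampi were the left ones of adult male C57/BL6N mice, contralateral to a right suprahippocampal injection of kainate or, in sham mice, of NaCl, and only kainate mice with generalized seizures had been kept. Hippocampi of several mice, not the same number in each, were pooled into each sample, and nuclei were sorted by the neuronal nuclear protein NeuN into NeuN+ nuclei, called neurons here, and NeuN- nuclei, called glia. There were 3 libraries of kainate neurons, 3 of sham neurons, 3 of kainate glia and 2 of sham glia, and the replicate numbers 1 to 3 come from the labels. Kainate and sham mice alike had been operated under medetomidine and ketamine and given buprenorphine afterwards. The NeuN- gate can hold endothelial cells, pericytes and some neurons beside glia, and RNA from nuclei was measured, not protein. In such bulk samples, fewer cells of a type and less RNA per cell cannot be told apart.

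Heat shock proteins are chaperones that bind unfolded proteins, hold them in solution and help them fold. Some are made all the time, such as HSC70 (Hspa8), while others, such as the inducible HSP70 (Hspa1a and Hspa1b) and HSP27 (Hspb1, named HSP25 in mice), are low at rest and are induced when proteins misfold. Heat shock factors, above all HSF1, bind heat shock elements in the promoters of these genes, which are built of repeated units of the letters GAA and their complement TTC. Cochaperones set the work of HSP70: J-domain proteins such as DNAJB1 bring it clients and start its ATPase, HSP110 (Hsph1) exchanges its nucleotide, and BAG3 couples HSP70 and small heat shock proteins to autophagy. HSP60 (Hspd1) and HSP10 (Hspe1) form the chaperonin of mitochondria. In the brain, HSP70 and HSP27 are widely used as marks of stressed neurons and glia after seizures.

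The promoters were searched for these units because they are the ones that heat shock factors bind. Whether these factors had a part in the differences between kainate and sham (below) was not tested. RefSeq windows of 300 bases, from 250 bases before to 50 after an annotated start on build GRCm38.p6, were matched by symbol for 8 of the 10 genes, but not for Hspa8 and Hsp90aa1. A pair of units was read as GAANNTTC or TTCNNGAA, where N is any base, and a run of 3 units as GAANNTTCNNGAA or TTCNNGAANNTTC. Each pair reads the same on both strands, each run is the other's complement, and a run contains 2 overlapping pairs. A pair was found for 7 of the 8 genes, against 17.0% of all 27025 genes with a window (15.1% of 32851 windows), and a run of 3 for Hsph1, Hspd1 and Hspe1, against 0.662% of all genes (0.603% of windows). These are matches of letters, not measured binding. The windows shown are those of the inducible genes that differed most, of Hsph1, and of Hspe1, whose run is also that of Hspd1, with the pair, or the run where there is one, in capitals.
Hspa1a, chr17:34972107-34972406, minus strand: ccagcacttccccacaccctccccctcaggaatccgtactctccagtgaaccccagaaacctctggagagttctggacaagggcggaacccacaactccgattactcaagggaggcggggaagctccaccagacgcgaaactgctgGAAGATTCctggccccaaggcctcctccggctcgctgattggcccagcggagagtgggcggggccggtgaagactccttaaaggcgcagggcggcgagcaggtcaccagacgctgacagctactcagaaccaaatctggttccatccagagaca
Hspb1, chr5:135887669-135887968, plus strand: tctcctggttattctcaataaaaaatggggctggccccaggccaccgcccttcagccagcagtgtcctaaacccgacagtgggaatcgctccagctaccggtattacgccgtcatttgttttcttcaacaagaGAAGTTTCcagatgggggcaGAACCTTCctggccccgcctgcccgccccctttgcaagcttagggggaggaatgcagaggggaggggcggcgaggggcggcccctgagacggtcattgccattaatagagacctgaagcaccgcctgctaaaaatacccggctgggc
Bag3, chr7:128523333-128523632, plus strand: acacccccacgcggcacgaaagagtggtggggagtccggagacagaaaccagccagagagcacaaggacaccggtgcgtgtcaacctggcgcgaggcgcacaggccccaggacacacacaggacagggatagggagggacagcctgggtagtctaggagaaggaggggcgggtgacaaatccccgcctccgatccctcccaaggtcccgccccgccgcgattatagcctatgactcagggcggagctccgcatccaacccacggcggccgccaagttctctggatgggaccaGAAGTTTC
Hsph1, chr5:149636287-149636586, minus strand: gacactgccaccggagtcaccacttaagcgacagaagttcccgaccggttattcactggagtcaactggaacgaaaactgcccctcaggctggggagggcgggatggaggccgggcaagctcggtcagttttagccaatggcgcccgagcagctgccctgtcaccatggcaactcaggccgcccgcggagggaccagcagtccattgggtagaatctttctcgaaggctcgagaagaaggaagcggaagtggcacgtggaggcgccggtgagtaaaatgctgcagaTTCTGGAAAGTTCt
Hspe1, chr1:55087898-55088197, plus strand: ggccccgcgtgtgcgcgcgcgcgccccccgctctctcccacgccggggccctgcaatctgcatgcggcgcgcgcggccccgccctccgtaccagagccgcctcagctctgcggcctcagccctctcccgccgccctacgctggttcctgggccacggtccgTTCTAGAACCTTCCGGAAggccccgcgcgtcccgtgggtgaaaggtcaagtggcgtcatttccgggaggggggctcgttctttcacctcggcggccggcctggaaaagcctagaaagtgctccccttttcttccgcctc
The Hspa1b window (chr17:34959189-34959488, minus strand) differed from that of Hspa1a at 4 of 300 bases and holds the same pair at the same place, 104 to 97 bases before the start. Hspb1 holds 2 pairs, 117 to 110 and 97 to 90 bases before its start. In Hsph1 the run lies 36 to 48 bases after the first of its 2 annotated starts, and a further pair, 33 to 26 bases before it, is left in lower case. The single pair of Bag3 lies 42 to 49 bases after its start. In Hspe1, 18 bases hold 2 overlapping runs, 89 to 72 bases before its start. The same 18 bases (chr1:55088059-55088076), read on the other strand, lie 144 to 127 bases before one of the 2 annotated starts of Hspd1, so that the chaperonin partners share them head to head. In neither window of Dnajb1 was a pair found.

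**Figure D1:**
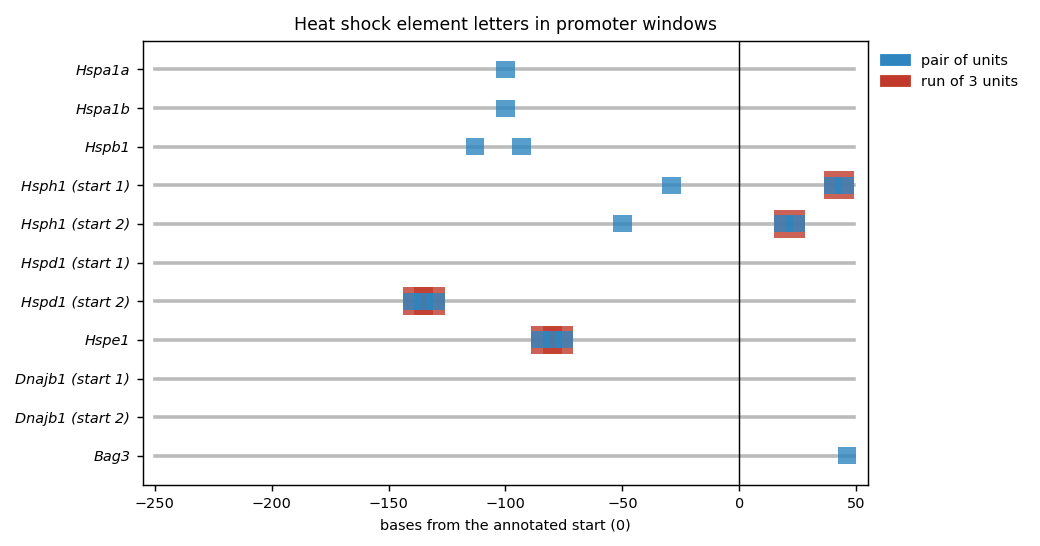
Each line is 1 promoter window from 250 bases before to 50 bases after an annotated start (vertical line, position 0), with pairs of units in blue and runs of 3 units in red. Hspa1a and Hspa1b hold a pair at the same place, Hspd1 (start 2) and Hspe1 hold the stretch they share, and Dnajb1 holds none in either window.

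The library totals ran from 12058875 to 45428465 counted reads. RNA input was 1 ng with 10 cycles of PCR for 9 libraries, and near 0.05 ng with 15 cycles for replicate 2 of kainate glia and replicate 1 of sham glia, the libraries of low input. Values per library are normalized CPM, each gene's counts relative to the size of its library, scaled by the TMM method, which sets the libraries' typical genes level. Kainate and sham were compared with edgeR's quasi-likelihood test on the 4 group means, with Benjamini-Hochberg adjustment over the 40714 genes tested, and a gene was called at an adjusted p (FDR) below 0.25. Libraries with the same number deviated from their group means together, so each result is also given, where it changes, with the replicate number as a block, a fit that compares kainate with sham within a number. In glia that fit rests on 2 pairs, since the sham glia library with the number 2 failed. In 1 of these pairs, that with the number 1, the kainate library was made from 1 ng and the sham library from 0.05 ng, so treatment and RNA input cannot be told apart there. With the block 3 residual degrees of freedom are left, so that fit's small FDRs rest largely on a spread that edgeR estimates over all genes. The study's mRNA libraries, those of both hemispheres together, had been sequenced on 2 platforms with different read lengths, and which library was run on which is not given in the sources used here. The sort showed in the markers: all 6 neuronal markers were called higher in neurons, and all astrocyte, microglia and oligodendrocyte markers in glia.

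Compared as CPM per kilobase of exon (RPKM), the 10 genes spanned a wide range of levels. Hsp90aa1, the inducible cytosolic HSP90, had a median level of 41.6 RPKM over the 11 libraries, from 16.1 to 148, and Hspa8 one of 40.8, from 19.2 to 138. Hsph1 followed with 24.5, Hspd1 with 17.3, Dnajb1 with 14.5, Hspa1b with 14.2 and Hspe1 with 9.25. Bag3 (4.76), Hspa1a (3.36) and Hspb1 (1.45) were lowest in median RPKM. Neighbours in this order overlapped, such as Hsp90aa1 and Hspa8 over most of their ranges. The range of Dnajb1 (8.77 to 29.9 RPKM) lay within the wider one of Hspa1b. The range of Hspa1b (3.29 to 95.6 RPKM) and of Hspb1 (0.326 to 16.9 RPKM) spanned more than that of Hspe1 (5.69 to 18.8 RPKM).

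**Figure D2:**
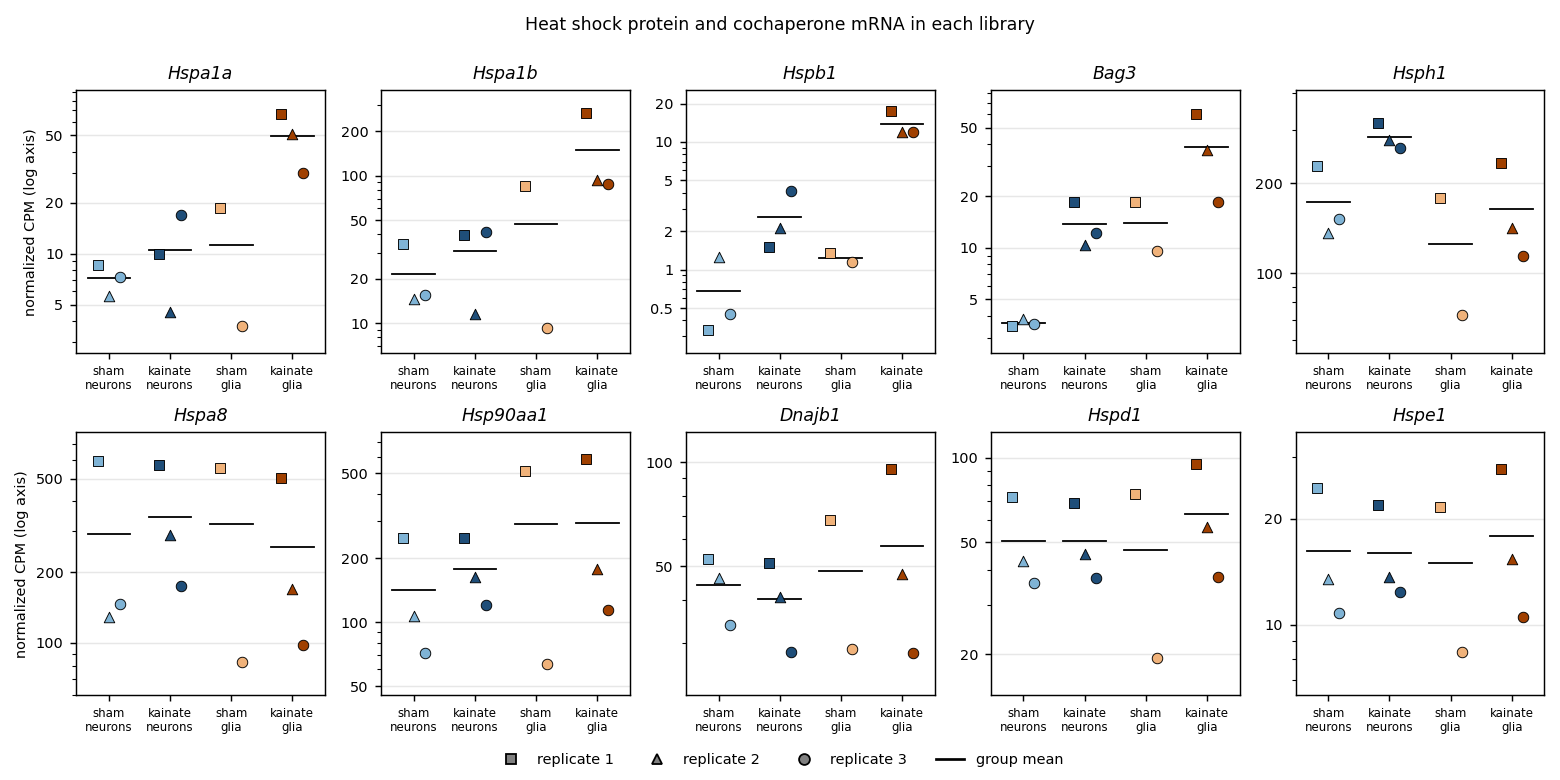
Normalized CPM on a log axis (a separate scale for each gene) in each of the 11 libraries, with the marker's shape giving the replicate number and the line the group mean. The upper row's first 4 genes sit higher in kainate glia than in sham glia without overlap, while replicate 1 (squares) is the highest library of every group for Hsph1 and for all 5 genes of the lower row.

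In glia, Hspb1 was upregulated after kainate, and Hspa1a, Hspa1b and Bag3 were called as well when libraries were compared within a number. Hspb1 was 11.1-fold higher in kainate than in sham glia and was the 1 gene of the 10 that was called (0.101% of all genes tested were called). With the replicate number as a block, Hspb1, Hspa1a, Hspa1b, Bag3 and Hspd1 were all called as upregulated, 5 of 10 against 5.79% of all genes. At an unadjusted p below 0.05 there were 3 of the 10, Hspb1, Hspa1a and Bag3, against 2.05% of all genes, and DESeq2's Wald test on the group means called 2, Hspb1 and Hspa1a, against 0.624% of all genes. For 4 of the 10, every kainate glia library was above both sham glia libraries, against 4.7% of all genes. The median log2 difference of the 10 was 0.41, beside 0.02 for all genes tested. The 10 genes were chosen with earlier results of these data known. In both cell types, their shares and medians beside those of all genes are therefore descriptions, not tests.

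Hspb1, the small heat shock protein HSP27, was measured at 17.43, 11.88 and 11.999 CPM in kainate glia replicates 1, 2 and 3, and at 1.34 and 1.14 CPM (21 and 23 reads) in sham glia replicates 1 and 3. The groups did not overlap, and the lowest kainate library was many times the highest sham library. The log2 difference was 3.47 ± 0.70 (SE; FDR = 0.227), and 3.54 ± 0.46 with the block (FDR = 2.26e-07). Without the block the call was lost when a single library was left out: the FDR of Hspb1 was 0.566, 0.587 and 0.545 without kainate glia replicates 1, 2 and 3, 0.803 without sham glia replicate 1, 0.465 with kainate neurons replicate 2 left out and 0.332 with replicate 3 of sham neurons left out, while the log2 difference stayed between 3.17 and 3.61. The call was also lost, at a log2 difference of like size, with DESeq2's size factors (3.38, FDR = 0.305), with low RNA input as a covariate (3.45, FDR = 0.490), without both libraries of low input (3.70, FDR = 0.9999) and with each cell type fitted on its own (3.50, FDR = 0.707, where edgeR called 0% of all genes and 1.07% had an unadjusted p below 0.05). With the counts of its near-copies added the log2 difference fell to 2.26 and was not called (FDR = 0.614). With the block the glia value depends on the 4 paired glia libraries alone. Leaving out any of them leaves 1 pair, with a spread estimated from the neuron libraries and over all genes. Hspb1 was then at 3.36 to 3.70 and still called (highest FDR = 0.00115).

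Hspa1a and Hspa1b, the near-identical genes of the inducible HSP70, moved together in glia. Hspa1a was at 66.6, 50.9 and 30.1 CPM in kainate glia and at 18.7 and 3.72 CPM in sham glia. Hspa1b was at 268, 94.3 and 87.9 CPM in kainate glia and at 84.7 and 9.22 CPM in sham glia. For both genes the kainate libraries lay above the sham libraries, but for Hspa1b by a small margin, and the 2 sham libraries differed more from each other than the margin between the groups. Within a number, the kainate library held 3.56 and 8.09 times the Hspa1a CPM of its sham partner, and 3.16 and 9.53 times its Hspa1b CPM. The log2 difference of Hspa1a was 2.13 ± 0.68 (SE; FDR = 1), and 2.39 ± 0.32 with the block (FDR = 4.85e-07). That of Hspa1b was 1.68 ± 0.84 (FDR = 1), and 2.43 ± 0.30 with the block (FDR = 6.29e-08). With 1 library left out, the values on the group means ranged from 1.39 to 3.75 for Hspa1a and from 0.79 to 4.05 for Hspa1b. With the counts of both added up the log2 difference was 1.78 ± 0.80 (FDR = 1), and with the block and only 1 pair left both genes were still called, at 1.83 to 3.02 for Hspa1a (highest FDR = 0.0236) and 1.66 to 3.26 for Hspa1b (highest FDR = 0.0186).

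Bag3, the cochaperone of HSP70 that acts in selective autophagy, was at 60.0, 37.2 and 18.49 CPM in kainate glia and at 18.47 and 9.52 CPM in sham glia. The groups were apart only by the small gap between kainate replicate 3 and sham replicate 1. Its log2 difference was 1.46 ± 0.51 (FDR = 1), and 1.33 ± 0.30 with the block (FDR = 0.0031). With 1 library left out, the value on the group means ranged from 0.89 to 2.04. With the block the call was lost when kainate glia replicate 1 was left out (0.93, FDR = 0.643) or sham glia replicate 1 was (0.96, FDR = 0.6725), libraries that also differ in RNA input. On the group means without the 4 libraries with the number 1, Bag3 was called in glia at 1.56 (FDR = 0.123), with 1 sham library left.

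Of the mitochondrial chaperonin, Hspd1 was at 95.1, 56.9 and 37.6 CPM in kainate glia and at 74.6 and 19.3 CPM in sham glia, so the groups overlapped. The log2 difference of Hspd1 was 0.43 ± 0.57 (FDR = 1), and 0.65 ± 0.24 with the block (FDR = 0.174). With the block, the call of Hspd1 was lost without kainate glia replicate 3 (log2 difference 0.36, FDR = 0.671), sham glia replicate 3 (0.35, FDR = 0.7505) or sham glia replicate 1 (0.96, FDR = 0.335). It was also lost, narrowly, without replicate 3 of kainate neurons (FDR = 0.2525) or of sham neurons (FDR = 0.2515). Its partner Hspe1 was at 27.7, 15.4 and 10.6 CPM in kainate glia and at 21.7 and 8.38 CPM in sham glia, with a log2 difference of 0.25 ± 0.54 (FDR = 1, with the block 0.864).

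The other members in glia were not called in either fit. Hsph1 had a log2 difference of 0.38 ± 0.46 (FDR = 1, with the block 0.310), Dnajb1 one of 0.24 ± 0.52 (FDR = 1, with the block 0.932), Hsp90aa1 one of 0.01 ± 0.82 (FDR = 1, with the block 0.375) and Hspa8 one of -0.31 ± 0.88 (FDR = 1, with the block 0.998). In all 4 genes the kainate and sham glia libraries overlapped.

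In neurons, Bag3, Hspb1 and Hsph1 stood higher after kainate, without overlap between the groups. None of the 10 was called on the group means (0.165% of all genes were), while 2 of the 10, Bag3 and Hspb1, had an unadjusted p below 0.05, against 2.09% of all genes, and DESeq2's Wald test called the same 2, against 0.884% of all genes. With the replicate number as a block, edgeR called 3 as upregulated, Bag3, Hspb1 and Hsph1, against 5.09% of all genes. Every kainate library was above every sham library for these 3 genes, against 4.26% of all genes. The median log2 difference of the 10 was 0.42, beside -0.01 for all genes tested.

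Bag3 was at 18.5, 10.4 and 12.2 CPM in kainate neurons and at 3.49, 3.85 and 3.58 CPM in sham neurons. The 3 sham libraries lay close together and the lowest kainate library was far above them. On the log2 scale the difference was 1.91 ± 0.45 (SE; FDR = 0.329), a 3.75-fold higher level, and 1.85 ± 0.25 with the block (FDR = 4.91e-07). With the block, Bag3 was called without each of the 6 neuron libraries in turn, at 1.60 to 2.07. On the group means its FDR fell below 0.25 without kainate glia replicate 3 (0.104). It was lower too without either sham glia library, which leaves 1 of them. Glia libraries enter this comparison through the shared spread and also through the set of genes tested. That set held 37187 genes without kainate glia replicate 3, against 40714 with all libraries. Bag3 was called as well with neurons fitted on their own (1.90, FDR = 0.0517, against 1.29% of all genes) and with a filter at 1 CPM (1.88, FDR = 0.152, against 0.468% of all genes).

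Hspb1 was low in neurons, at 1.49, 2.12 and 4.10 CPM after kainate (21, 83 and 91 reads) and at 0.336, 1.26 and 0.451 CPM in sham (5, 44 and 14 reads). The groups did not overlap, with a narrow gap between kainate replicate 1 and sham replicate 2. The log2 difference was 1.87 ± 0.56 (FDR = 0.859), and 1.90 ± 0.41 with the block (FDR = 0.00161). With the block the call of Hspb1 was lost without replicate 3 of kainate neurons or of sham neurons, where the log2 difference was 1.21 in each case (FDR = 0.600 and 0.569). With the reads of its 2 near-identical copies added, as described further on, the value of Hspb1 in neurons was 0.45 (FDR = 1, with the block 0.926).

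Hsph1, the HSP110 that recharges HSP70, was at 316, 278 and 261 CPM in kainate neurons and at 229, 136 and 152 CPM in sham neurons. Each kainate library was above its sham partner, by a ratio of 1.38 to 2.04. The log2 difference was 0.73 ± 0.41 (FDR = 1), and 0.76 ± 0.18 with the block (FDR = 0.00571), and with the block the call was kept without each of the 6 neuron libraries in turn, at 0.62 to 0.90.

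The inducible HSP70 genes were not called in neurons. Hspa1a was at 9.96, 4.54 and 17.0 CPM in kainate neurons and at 8.59, 5.63 and 7.32 CPM in sham neurons. Hspa1b was at 39.8, 11.6 and 41.3 CPM in kainate neurons and at 34.2, 14.6 and 15.5 CPM in sham neurons. Both genes overlapped between the groups, and in replicate 2 the kainate library was below its sham partner for both. The log2 difference was 0.55 ± 0.57 for Hspa1a and 0.53 ± 0.71 for Hspa1b, with an FDR of 1 for each, and 0.825 and 0.657 with the block.

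The remaining 5 genes in neurons were called in neither fit. Their log2 difference was 0.32 ± 0.73 for Hsp90aa1, 0.25 ± 0.79 for Hspa8, 0.0074 ± 0.50 for Hspd1, -0.02 ± 0.48 for Hspe1 and -0.14 ± 0.46 for Dnajb1, each with an FDR of 1. With the block the FDR was 0.312 for Hsp90aa1, 0.367 for Hspa8, and 0.993 to 1.00 for the others. Dnajb1 was the 1 gene of the 10 that was lower in kainate than in sham in all 3 neuron pairs, by ratios of 0.835 to 0.978.

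**Figure D3:**
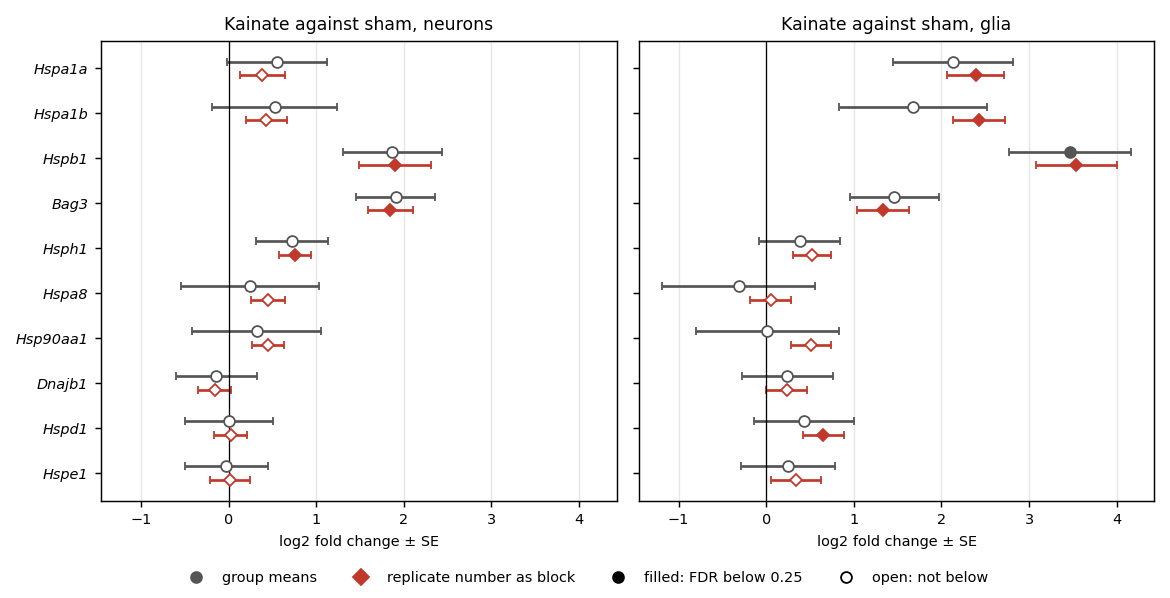
Log2 fold change of kainate against sham (horizontal axis, bars are SE) in neurons and glia for each gene, on the group means (grey circles) and with the replicate number as a block (red diamonds), filled where the FDR was below 0.25. On the group means, Hspb1 in glia is filled; with the block, 3 genes in neurons and 5 in glia are, all to the right of 0.

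For 6 of the 10 genes, Hsph1, Hspa8, Hsp90aa1, Dnajb1, Hspd1 and Hspe1, replicate 1 was the highest library in all 4 groups, against 19.6% of all genes. For 5 of these, all but Hsph1, the 4 libraries with the number 1 were above all 7 others, a stricter pattern whose share of all genes was not counted. Hspa8 was at 502 to 595 CPM in the libraries with the number 1 and at 82.6 to 287 CPM in the others. Hsp90aa1 was at 248 to 583 CPM in the first and at 63.4 to 179 CPM in the second, and Dnajb1 at 51.2 to 95.8 and 28.1 to 47.5 CPM. Hspd1 was at 69.1 to 95.1 and 19.3 to 56.9 CPM, and Hspe1 at 21.7 to 27.7 and 8.38 to 15.4 CPM. Hspa1a, Hspa1b, Hspb1 and Bag3 did not show this split over all groups, but in both glia groups replicate 1 was their highest library. Hspa1b was at 268 CPM in replicate 1 of kainate glia and at 94.3 and 87.9 CPM in the others. In sham glia it was at 84.7 CPM in replicate 1 and at 9.22 CPM in replicate 3. The shares of reads taken by near-identical copies did not all split by number in one direction. Gm8355 held 24.6% to 26.1% of the summed CPM of Hspa8 and itself in the libraries with the number 1 and 29.5% to 33.1% in the others, and the shares of Gm12346 (beside Hsp90aa1) and Hspd1-ps3 (beside Hspd1) were lower in the first too. That of Gm5844 beside Hsp90aa1 was higher in the first, 22.5% to 24.0% against at most 19.9%, while those of Gm6210 beside Hspa8 and Gm9817 beside Hspb1 overlapped. The part of platform and read length in these values was not tested.

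Without the 4 libraries with the number 1, a setting chosen after seeing the data, Bag3 and Hspb1 were called in neurons (log2 difference 1.53, FDR = 0.00623, and 1.74, FDR = 0.0118), against 2.28% of all genes. In glia that setting called Hspb1 (3.40, FDR = 6.57e-05), Hspa1a (3.46, FDR = 5.86e-06), Hspa1b (3.32, FDR = 7.71e-06) and Bag3 (1.56, FDR = 0.123), against 1.08% of all genes. It leaves 1 sham glia library, which the fit takes to vary like the other groups.

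Within the 5 pairs of kainate and sham libraries with the same number, 4 of the 10 genes had a higher CPM after kainate in all 5, against 7.16% of all genes: Hspb1, Bag3, Hsph1 and Hsp90aa1. These 4 were also the ones with a higher CPM in all 3 neuron pairs, against 15.7% of all genes. The ratio of Hspb1 was 10.5 and 13.0 in the glia pairs and 1.67 to 9.08 in the neuron pairs. That of Bag3 was 1.94 and 3.25 in the glia pairs and 2.71 to 5.30 in the neuron pairs. That of Hsp90aa1 was smaller, 1.00 to 1.67 in neurons and 1.13 and 1.80 in glia. In the glia pairs alone, 8 of the 10 genes had a higher CPM after kainate in both, the exceptions being Hspa8 and Dnajb1, against 31.5% of all genes.

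**Figure D4:**
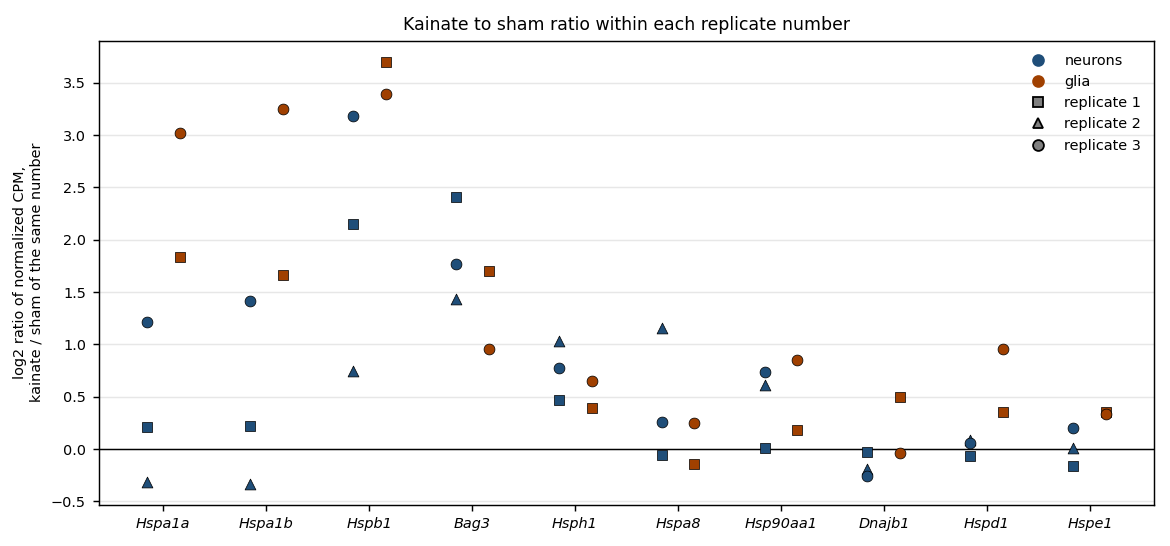
Log2 ratio of normalized CPM, kainate over sham library of the same number, for each gene (vertical axis, 0 means equal), with neurons in blue, glia in brown and the marker's shape giving the number. Points of Hspb1 and Bag3 all lie above 0, and those of Hspa1a and Hspa1b lie higher in the 2 glia pairs than in any of the 3 neuron pairs.

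The kainate difference in neurons minus that in glia was tested as the interaction of treatment and cell type. None of the 10 genes was called on the group means, where 0.00246% of all genes were, none had an unadjusted p below 0.05, and DESeq2's Wald test called none, against 0.0761% of all genes. The log2 interaction was -1.59 ± 0.86 for Hspa1a, -1.15 ± 1.08 for Hspa1b, -1.60 ± 0.84 for Hspb1 and 0.45 ± 0.65 for Bag3, each with an FDR of 1. With 1 library left out it ranged from -3.21 to -0.84 for Hspa1a and from -3.53 to -0.27 for Hspa1b. For Hspb1 that range was -2.10 to -0.79, and for Bag3 it was -0.14 to 0.96. With the block on the number, set within each cell type, 2 of the 10 were called, against 1.94% of all genes: Hspa1a at -2.01 ± 0.41 (FDR = 0.00319) and Hspa1b at -2.00 ± 0.38 (FDR = 0.00121), both with the larger kainate difference in glia. Both kept this direction without each of the 10 paired libraries in turn. Without kainate glia replicate 3 the values were -1.48 for Hspa1a (FDR = 0.175) and -1.26 for Hspa1b (FDR = 0.193), against 6.42% of all genes called. Without sham glia replicate 3 they were -1.44 and -1.23. The glia pair left in these fits is that with the number 1, where treatment and RNA input cannot be told apart. With the pool as the block instead, which compares the fractions sorted from the same hippocampi, the values were -2.27 for Hspa1a and -2.00 for Hspa1b, with an FDR of 1 for both, and DESeq2 with the block on the number called Hspa1a (FDR = 0.00396) but not Hspa1b (FDR = 0.265), against 3.23% of all genes. For Hspb1 the value with the block within each cell type was -1.64 ± 0.61 (FDR = 0.376). The other 6 genes had log2 interactions between -0.42 (Hspd1) and 0.56 (Hspa8) on the group means, with Hspe1 at -0.27, Dnajb1 at -0.38, Hsp90aa1 at 0.31 and Hsph1 at 0.34.

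Averaged over both treatments, Bag3 and Hspb1 had lower levels in neurons than in glia in every pool, and Hsph1 had higher ones. Of the 10 genes, 5 were called between NeuN+ and NeuN- nuclei on the group means, against 37.2% of all genes, and 7 with the pool as a block, against 59.7%, shares not far from those of all genes. Bag3 was lower in neurons by a log2 difference of -1.72 ± 0.33 (FDR = 0.00174), Hspb1 by -1.61 ± 0.41 (FDR = 0.0134), Hspa1a by -1.44 ± 0.43 (FDR = 0.0309) and Hspa1b by -1.71 ± 0.54 (FDR = 0.0416). In the 5 pools with both fractions, glia held 2.53 to 11.7 times the Hspb1 CPM of neurons and 1.51 to 5.29 times the Bag3 CPM. Hspa1a and Hspa1b were higher in glia in 4 of the 5 pools, the exception being sham replicate 3, and without both libraries of low input neither was called (log2 difference -0.60, FDR = 0.303 for Hspa1a, and -0.63, FDR = 0.330 for Hspa1b).

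Hsph1 was higher in neurons, with a log2 difference of 0.63 ± 0.31 (FDR = 0.199), or 0.79 ± 0.19 with the pool as a block (FDR = 0.00813). Glia held 0.437 to 0.777 of the Hsph1 CPM of neurons in all 5 pools. Hspa8 was higher in neurons in all 5 pools too, glia holding 0.560 to 0.934 of its CPM, and was called with the pool as a block (0.53 ± 0.19, FDR = 0.0558) but not on the group means (0.14 ± 0.59, FDR = 0.877). Hsp90aa1 was called as lower in neurons with the pool as a block (-0.43 ± 0.25, FDR = 0.200), not on the group means (-0.87 ± 0.55, FDR = 0.307). Glia held 2.34 and 2.08 times the Hsp90aa1 CPM of neurons in the pools with the number 1 and 0.882 to 1.09 times in the others, and the log2 difference turned to 0.12 without both libraries of low input and to 0.35 without the libraries with the number 1. Dnajb1 (-0.32), Hspd1 (-0.11) and Hspe1 (-0.03) were called in neither fit. The call of Hsph1 on the group means was lost without kainate neurons replicate 1 (FDR = 0.314) or 2 (0.295), sham neurons replicate 1 (0.371), kainate glia replicate 2 (0.321) or 3 (0.393), or sham glia replicate 3 (0.504), and its value was 1.05 without sham glia replicate 1. Without that library the call of Hspa1b was lost (-0.51, FDR = 0.380), and Hspa1a was at -0.62 (FDR = 0.225).

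Several of these genes have near-identical copies in the genome, which bears on the counts because only uniquely mapped reads were counted. Windows of 75 bases were compared between each gene's longest protein-coding transcript and the transcripts of all other genes in GENCODE release M21. Hsph1, Dnajb1 and Bag3 shared no window with another gene. Hspa1a shared 61.7% of its windows with other genes, mostly with Hspa1b (52.7%), and Hspa1b shared 55.8%. Hspa8 shared 68.6%, Hsp90aa1 53.1%, Hspb1 47.3%, Hspd1 33.7% and Hspe1 29.1% of their windows with other genes. How reads of Hspa1a and Hspa1b were split between them is therefore uncertain, and Hspa1b held 1.96 to 4.79 times the RPKM of Hspa1a in the 11 libraries.

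The copies took reads of their own. Gm8355 held 24.6% to 33.1% of the summed CPM of Hspa8 and itself, Gm12346 held 36.6% to 44.7% of that of Hsp90aa1 and itself, and Hspd1-ps3 held 29.3% to 39.0% of that of Hspd1 and itself. Gm9817, which shares 41.6% of the windows of Hspb1, was at 0.498 to 4.27 CPM, and its log2 difference was 0.27 in glia and -0.98 in neurons (FDR = 1 for both). With the counts of its 2 copies added, a setting chosen after seeing the data, the log2 difference of Hspb1 was 2.26 ± 0.55 in glia (FDR = 0.614, with the block 2.60e-05) and 0.45 ± 0.46 in neurons (FDR = 1, with the block 0.926). With the copies added and the block, the interaction of Hspb1 was -2.03 (FDR = 0.0283), and the count of Hspb1 alone gave no call there. Adding the copies left Hspa8, Hsp90aa1, Hspd1 and Hspe1 without a call on the group means in either cell type.

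The library kit does not keep the strand, so overlapping genes matter as well. Hspa1a (chr17:34969190-34972156, minus strand, 1 exon) shares 564 of its exonic bases (19.0% of them) with Gm20481 on the other strand, for which no read was counted. Whether reads over these bases were left out of the Hspa1a count too was not tested. Hspd1 (chr1:55077835-55088243, minus strand) and Hspe1 (chr1:55088132-55091307, plus strand) overlap by 112 exonic bases. Hspa1b lies next to Hspa1a at chr17:34956436-34959238 (minus strand, 1 exon), Hspb1 at chr5:135887919-135889563 (plus strand) and Bag3 at chr7:128523616-128546981 (plus strand), all of them protein-coding genes on build GRCm38 (mm10). Hsph1 lies at chr5:149614287-149636376 (minus strand), Hspa8 at chr9:40800984-40810087 (plus strand), Dnajb1 at chr8:83608193-83612653 (plus strand) and Hsp90aa1 at chr12:110690605-110702728 (minus strand).

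A wider set of 69 chaperone genes in 8 lists was not called in either cell type on the group means. In neurons 1 of the 69 had an unadjusted p below 0.05, against 2.09% of all genes, and DESeq2's Wald test called 1, against 0.884%. In glia both counts were 0, against 2.05% and 0.624% of all genes. The median log2 difference of the 69 was 0.10 in neurons and -0.03 in glia, beside the 0.42 and 0.41 of the 10 genes above. Since both sets were chosen with earlier results of these data known, this contrast is a description, not a test. With the replicate number as a block, 5 of the 69 (7.25%) were called in neurons, 3 higher and 2 lower, and 8 (11.6%) in glia, 7 higher and 1 lower. Over all genes these shares were 5.09% and 5.79%.

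Each list's gene with the smallest p in neurons was as follows. Among the small heat shock proteins it was Hspb3, at 2.63 to 3.24 CPM in kainate and 0.336 to 1.00 CPM in sham neurons, with a log2 difference of 2.14 ± 0.59 (FDR = 0.61, with the block 0.00193). Hspb3 is known mainly from muscle, and its libraries did not overlap in neurons, while in glia it was at 1.19 to 2.30 CPM in kainate and 1.73 to 1.88 CPM in sham. Among the J-domain proteins it was Dnajb5, at 252 to 441 CPM in kainate and 106 to 293 CPM in sham neurons, with a log2 difference of 0.84 ± 0.40 (FDR = 1, with the block 0.00200). The other lists' leading genes were Hspa12a of the HSP70 family (-0.58), the ER chaperone Hspa5 (0.46), the HSP90 cochaperone Ptges3 (0.36), Cct8 of the CCT chaperonin (0.34), mitochondrial Trap1 of the HSP90 family (0.22) and Hsf1 of the heat shock factors (-0.20), each with an FDR of 1. Of these, Hspa12a (FDR = 0.0528) and Hspa5 (FDR = 0.200) were called with the block.

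In glia Dnajb5 led the J-domain proteins again, at 67.7 to 75.1 CPM in kainate and 31.6 to 43.5 CPM in sham glia, without overlap, with a log2 difference of 0.93 ± 0.45 (FDR = 1, with the block 0.0160). Hspb8, the small heat shock protein that works with BAG3, was at 3.48 to 14.3 CPM in kainate and 2.83 to 5.43 CPM in sham glia, with a log2 difference of 1.02 ± 0.60 (FDR = 1, with the block 0.451). Mitochondrial Hspa9 (0.68, with the block FDR = 0.0233), the HSP90 cochaperone Fkbp5 (0.45, with the block FDR = 0.0280) and Cct2 (0.44, with the block FDR = 0.211) led their lists and were called with the block. The ER chaperone Hyou1 (0.53), Hsf4 (0.55) and Trap1 (0.11) led theirs and were not. All 8 CCT chaperonin genes had a log2 difference above 0 in glia, with a median of 0.32, and none was called on the group means.

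**Figure D5:**
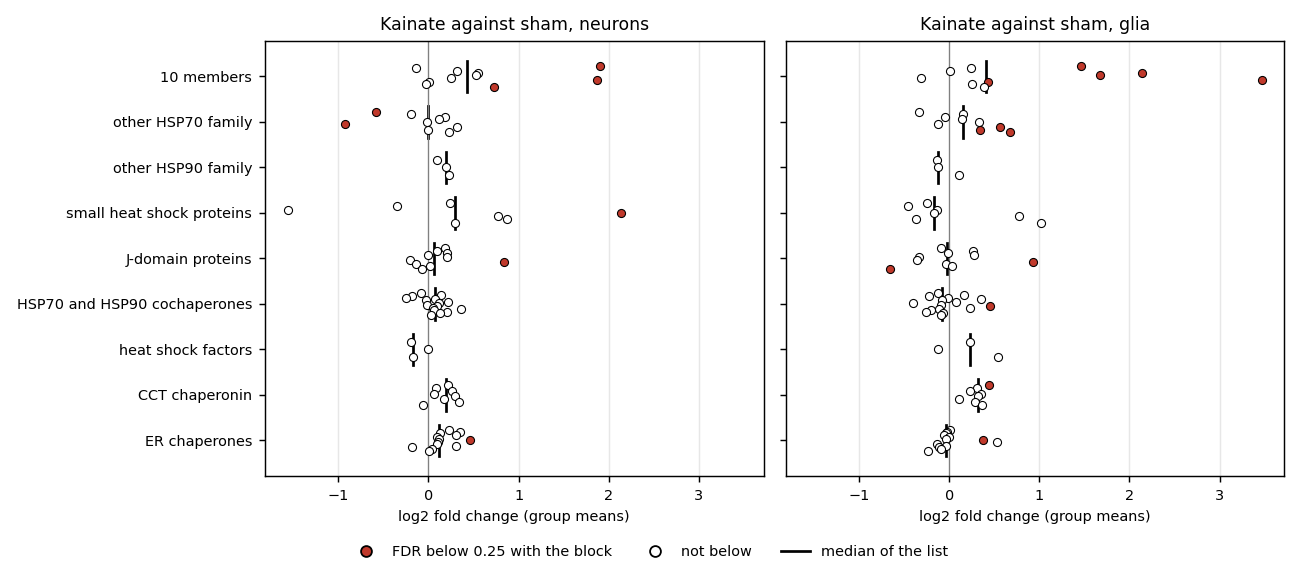
Log2 fold change of kainate against sham on the group means (horizontal axis) for the 10 genes and each gene of the 8 wider lists, with list medians as bars and red points for an FDR below 0.25 with the block. The largest values in glia belong to the 10 genes, Hspb1 at 3.47 and Hspa1a at 2.13, while the genes of the wider lists lie between -0.66 and 1.02 there.

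The 10 genes differed in how their levels ran over the 11 libraries. The Pearson correlation of log2 CPM was 0.965 between Hspd1 and Hspe1, 0.960 between Hspa1a and Hspa1b and 0.934 between Hspa8 and Hspe1, and it was 0.854 between Hspb1 and Bag3 but -0.135 between Hspb1 and Hspa8. Hspa1b lay between, at 0.734 with Hsp90aa1 and 0.708 with Hspb1. The libraries share pools, groups and depth, so these values are descriptions. Among 24722 genes with a mean of at least 1 CPM, those most like Hspb1 were Itga5 (0.968), Myc (0.954) and Tm4sf1 (0.953), and those most like Bag3 were Pfkfb3 (0.976), Trib1 (0.975) and Ccn1 (0.965). Those most like Hspa1a were Iars (0.942), Pfkfb4 (0.941) and Slc5a3 (0.936), and those most like Hspa1b were Atic (0.940), Mrps6 (0.931) and Hbegf (0.927). Hspd1 ran most closely with Cct5 (0.992), Gm18959 (0.989) and Zbtb7a (0.986), and Hspe1 with Phb (0.987), Ccnq (0.984) and Eif3l (0.983). Hspa8 ran with Smim7 (0.998), its own copy Gm8355 (0.996) and Saraf (0.993), and Hsp90aa1 with Cers5 (0.996), Mmadhc (0.992) and Gm7964 (0.992). Hsph1 ran with Acadvl (0.982), Fam207a (0.978) and Thap7 (0.971), and Dnajb1 with Ppm1d (0.972), Tmem104 (0.968) and Desi2 (0.967).

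Markers of cell types moved between kainate and sham glia as well. With the block, all 3 markers of oligodendrocyte precursors, 3 of 4 of oligodendrocytes, 2 of 5 of microglia, 1 of 4 of pericytes and 3 of 6 of astrocytes were lower in kainate glia, while the astrocyte marker Gfap and the neuronal marker Gad1 were higher. None of the 33 marker genes was called on the group means in either cell type, and none was at 0 in any library. The summed CPM of the 5 endothelial markers was 19.0 to 31.4 in kainate glia and 17.3 to 33.3 in sham glia, and none of the 5 was called with the block. The summed CPM of the astrocyte markers was 625 to 3126 in kainate glia and 1047 to 3999 in sham glia, and that of the microglia markers 463 to 1379 and 503 to 2629. In neurons the astrocyte markers summed to 252 to 410 CPM after kainate and 170 to 234 CPM in sham, and with the block 4 of the 6 were higher and 2 lower. Of the microglia markers, which summed to 31.9 to 49.1 CPM in kainate and 25.1 to 29.0 CPM in sham neurons, Csf1r was higher (16.6 to 30.2 against 7.99 to 12.1 CPM, with the block FDR = 3.36e-05) and P2ry12 lower (with the block FDR = 0.216). The neuronal markers Gad1 and Gad2 were higher in kainate neurons with the block (FDR = 0.0510 and 0.0991) and the oligodendrocyte marker Mog lower (FDR = 0.235), and no pericyte, endothelial or oligodendrocyte precursor marker was called. Bag3 and Hspb1, which were higher in kainate neurons, had higher levels in glia than in neurons. The part of these markers in the results on Hspb1, Bag3, Hspa1a, Hspa1b and Hsph1 was not tested.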

How the data were processed

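Nuclear RNA of 11 libraries was analysed, and 11 bisulfite samples of the series were not used. Per the labels and the study's methods, the authors trimmed reads with Trim Galore 0.4.3, aligned them to mm10 with Rsubread and counted uniquely mapped reads per GENCODE M16 gene with featureCounts. The deposited values are raw counts, with no molecular identifiers. Symbols and coordinates came from GENCODE M21, which gave a symbol to 53274 of 53379 identifiers. The groups came from the labels, whose protocol text names the right hippocampus while the sample titles and the study name the left. Per the study's methods the mRNA libraries of both hemispheres were run on 2 platforms with different read lengths, and no platform term could be fitted because the run of each library is not given in the sources used here.

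Genes were filtered with filterByExpr (minimum count 10), scaled by TMM and tested with edgeR 4.0.16 (quasi-likelihood, 7 residual degrees of freedom, 3 with the block). The model held the means of all 4 groups so that they share 1 estimate of spread, whereas the study fitted neurons and glia apart. Separate fits were an alternative here, as was DESeq2 1.42.0, and the steps were tested on simulated data. The separate fits do not repeat the study's own, which kept fewer genes after its filters. Here 30259 genes were tested in neurons and 39857 in glia. Same-numbered kainate and sham libraries correlated in their deviations from the group means at 0.643, 0.161 and 0.491 in neurons and 0.760 and 0.787 in glia, so the numbers were taken to pair them. Numbers 2 and 3 were not told apart by this check in neurons, where kainate 2 with sham 3 was at 0.166 and kainate 3 with sham 2 at 0.418. The fractions of a pool came from the same animals. That the samples of a group were separate pools is from the study. On the group means, p-values measure the spread between these pools. With the replicate number as a block, they measure that of the differences between kainate and sham within a number. With the pool as a block, they measure that of the differences between fractions within a pool. In each fit edgeR also draws on a spread estimated over all genes.

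The 10 genes, the wider lists and the markers were chosen with earlier results of these data known. All 10 genes are named, as are each wider list's gene with the smallest p and, for each of the 10, the 3 genes with the most similar log2 CPM.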

Additional observations from a re-analysis of the deposited data

Results flagged for a closer look

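The kainate difference differed between neurons and glia for 2 genes in the test of the interaction with the replicate number as a block. For Hspa1a the difference in neurons minus that in glia was -2.01 on the log2 scale (FDR = 0.00319), from 0.38 in neurons and 2.39 in glia. For Hspa1b it was -2.00 (FDR = 0.00121), from 0.43 in neurons and 2.43 in glia. Both genes were higher in kainate in 2 of 2 glia pairs and in 2 of 3 neuron pairs. On the group means, and with the pool as the block, the FDR was 1 for both. With DESeq2 and the replicate block, Hspa1a was called (FDR = 0.00396) and Hspa1b was not (FDR = 0.265). Hspa1a and Hspa1b share most of their sequence, so these are not independent results.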

How the results depend on the processing

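Over the 10 genes and 4 comparisons, 1011 of the gene values under an alternative kept direction and side of the threshold, 47 passed it newly, 33 no longer passed it and 89 changed sign. DESeq2 with the block, leaving out the libraries numbered 1, adding near-copies and leaving out libraries under the block were chosen after seeing the data. Where leaving out a sham glia library leaves 1, it is taken to vary like the other groups. The cause of each change was not tested. Low depth limits Hspb1, with 5 to 91 reads in neurons and 21 and 23 in the sham glia libraries.

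The number of the 10 genes called is given with the share of all genes called. In neurons, 0 on the group means (0.165%), it was 2 with DESeq2 (0.884%), 1 with a filter at 1 CPM (0.468%), 1 with separate fits per cell type (1.29%), 3 with the replicate block (5.09%), 4 with DESeq2 and the block (6.28%) and 2 without the libraries numbered 1 (2.28%). In glia, 1 on the group means (0.101%), it was 0 with DESeq2 size factors (0.0909%), 2 with DESeq2 (0.624%), 0 with separate fits (0%), 5 with the replicate block (5.79%), 0 with the low input fitted as a covariate (0.054%), 0 without both libraries of low input (0.00226%), 0 at an FDR below 0.05 (0.00246%), 6 with DESeq2 and the block (9.08%), 4 without the libraries numbered 1 (1.08%) and 0 with near-copies added (0.0983%). For the interaction, 0 on the group means (0.00246%), it was 2 with the replicate block (1.94%), 1 with DESeq2 and the block (3.23%) and 2 without the libraries numbered 1 (0.151%). Between NeuN+ and NeuN- nuclei, 5 on the group means (37.2%), it was 3 without both libraries of low input (51.3%) and 8 without the libraries numbered 1 (65.5%). Leaving out 1 library gave 0 to 1 in neurons (0.0123% to 0.413%) and 0 to 1 in glia (0.00225% to 6.59%, the highest without sham glia replicate 3), and with the block 2 to 5 in neurons (1.92% to 7.3%) and 3 to 7 in glia (1.97% to 9.84%). With the block the count in neurons was 5 without replicate 1 or 2 of either neuron group or replicate 3 of sham glia, and in glia it was 3 without sham glia replicate 1.

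In neurons Hspd1 turned to -0.041 without a filter, -0.0085 with the filter at 1 CPM and -0.0027 without the libraries numbered 1, and Hspe1 to 0.017 with the replicate block, 0.0036 with DESeq2 and the block and 0.021 without the libraries numbered 1. In glia Hsp90aa1 turned to -0.0877 with DESeq2 size factors, -0.0876 with DESeq2 and -0.054 without a filter, and Hspa8 to 0.052 with the replicate block, 0.22 with the covariate, 1.89 without both libraries of low input and 0.71 without the libraries numbered 1. For the interaction, Hsp90aa1 turned to -0.057 with the replicate block and -0.30 with the covariate. Without both libraries of low input the interaction was -2.17 for Hsp90aa1, -1.64 for Hspa8, -0.56 for Hsph1 and -0.16 for Bag3, and without the libraries numbered 1 it was -0.63, -0.042, -0.0027 and -0.033. Between NeuN+ and NeuN- nuclei Hspd1 and Hspe1 turned to 0.080 and 0.085 with the pool as the replicate block, 0.27 and 0.18 with the covariate, 0.52 and 0.37 without both libraries of low input and 0.54 and 0.39 without the libraries numbered 1, and Dnajb1 and Hsp90aa1 to 0.020 and 0.12 without both libraries of low input and 0.29 and 0.35 without the libraries numbered 1.

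Leaving out 1 library also turned the sign of values that were not called on the group means, some of which were called with a block or without a library. In neurons Dnajb1 ranged from -0.36 to 0.056, Hsp90aa1 from -0.0066 to 0.99, Hspa8 from -0.33 to 1.32, Hspd1 from -0.28 to 0.36 and Hspe1 from -0.32 to 0.39. In glia Dnajb1 ranged from -0.47 to 1.02, Hsp90aa1 from -1.14 to 2.23, Hspa8 from -1.40 to 1.67, Hspd1 from -0.25 to 1.74, Hspe1 from -0.33 to 1.12 and Hsph1 from -0.13 to 1.19. For the interaction Bag3 ranged from -0.14 to 0.96, Dnajb1 from -1.16 to 0.27, Hsp90aa1 from -1.91 to 1.43, Hspa8 from -1.42 to 1.64, Hspd1 from -1.73 to 0.25, Hspe1 from -1.14 to 0.27 and Hsph1 from -0.47 to 0.86. Between NeuN+ and NeuN- nuclei Dnajb1 ranged from -0.67 to 0.078, Hsp90aa1 from -1.28 to 0.25, Hspa8 from -0.39 to 1.14, Hspd1 from -0.44 to 0.56 and Hspe1 from -0.35 to 0.42. The median of all genes in glia moved by 0.733 without sham glia replicate 3, -0.287 without kainate glia replicate 3, -0.129 without sham glia replicate 1, 0.155 with the covariate and -0.121 without both libraries of low input.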
